A study of Homo sapiens with 6 samples.

Results

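The aldo-keto reductases and aldehyde dehydrogenases were followed in irradiated human kidney tubule cells with and without added PRDM16. Many of these enzymes dispose of reactive aldehydes. The members were all listed genes whose symbol begins with AKR1, AKR7, or ALDH and a digit, without pseudogenes and antisense genes. They numbered 31 of 34644 gene names, 12 aldo-keto reductases and 19 aldehyde dehydrogenases, each listed once. The rule used names alone and no measured value. The 6 libraries held RNA of HK-2, an immortalized human line derived from proximal tubule epithelium. All 6 had received 8 Gy of X-rays, and RNA was taken on day 7. The 3 IR+NC-LV libraries came from cells carrying a negative control lentivirus, and the 3 IR+PR-LV libraries from cells carrying a lentivirus that expresses PRDM16, a transcriptional regulator. The study's methods describe puromycin selection of transduced cells, so both groups share the virus, the selection and the irradiation, and no unirradiated library was analysed here. Nothing in the labels says that the replicates were separate cultures, so p-values measure only the spread between these libraries.

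As background, most aldo-keto reductases use NADPH to turn an aldehyde or ketone into an alcohol. Most aldehyde dehydrogenases use NAD or NADP to oxidize an aldehyde to an acid, whereas ALDH18A1 makes pyrroline carboxylate from glutamate. Their substrates include products of lipid peroxidation, which ionizing radiation promotes, as well as glucose, retinal, steroids, biogenic amines and intermediates of amino acid breakdown. The proximal tubule is known for its amino acid, betaine and carnitine metabolism, and several of these enzymes serve those routes.

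The libraries held 13407074 to 28540041 assigned counts each. PRDM16 had 2, 0 and 1 counts in IR+NC-LV replicates 1 to 3 and 14, 10 and 8 counts in IR+PR-LV replicates 1 to 3. Its level was 0.0637 ± 0.0600 against 0.542 ± 0.255 CPM (counts scaled to library size; SD, n = 3 each), and the exact two-sided permutation test gave p = 0.1, the smallest value that 3 against 3 libraries allow. The direction matched the labels, at a low level in both groups. Of 14 proximal tubule markers 7 had enough counts to be tested, and their list summed to 225 to 280 CPM across the libraries. PAX8, a kidney lineage factor, averaged 167 and 175 CPM, while LRP2, a receptor gene that defines mature proximal tubule, averaged 0.0158 and 0.0301 CPM and was thus nearly missing. All 7 epithelial markers were tested, and KRT8 and KRT18 averaged 551 and 277 CPM in IR+NC-LV, but CDH1, the epithelial cadherin, was low, with 8 to 17 counts per library, and the cadherin CDH2 averaged 312 CPM. Fibroblast markers summed to 102 to 137 CPM, mostly LUM, and of 4 immune markers only CD68 was tested. No endothelial, distal tubule or hepatocyte marker passed the filter. IR+NC-LV replicate 3, the shallowest library, stood apart from the others with a score of -29.3 on the first principal component, where the other libraries lay between -9.0 and 14.7. IR+PR-LV replicate 1 lay apart on the second component, at 26.8. Leaving out either library moved several estimates, and those values are given beside the results.

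The members together took 1723 to 1966 TPM. TPM is the deposited unit, scaled to gene length and library size, on which genes are compared with each other here. The length is that of all exons listed for a gene, so ratios between genes depend on that annotation. Of the 31 genes, 14 averaged 10 TPM or more over the 6 libraries, 4 averaged 1 to 10 TPM, 9 had counts but averaged under 1 TPM, and 4 had no count in any library. The transcript pool was uneven: the first 3 genes made up 73.9% of the members' TPM and the first 8 made up 93.2%. Those 8 were, in order, AKR1B1, ALDH18A1, ALDH7A1, AKR1A1, ALDH9A1, ALDH1A3, AKR7A2 and ALDH1B1.

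**Figure D1:**
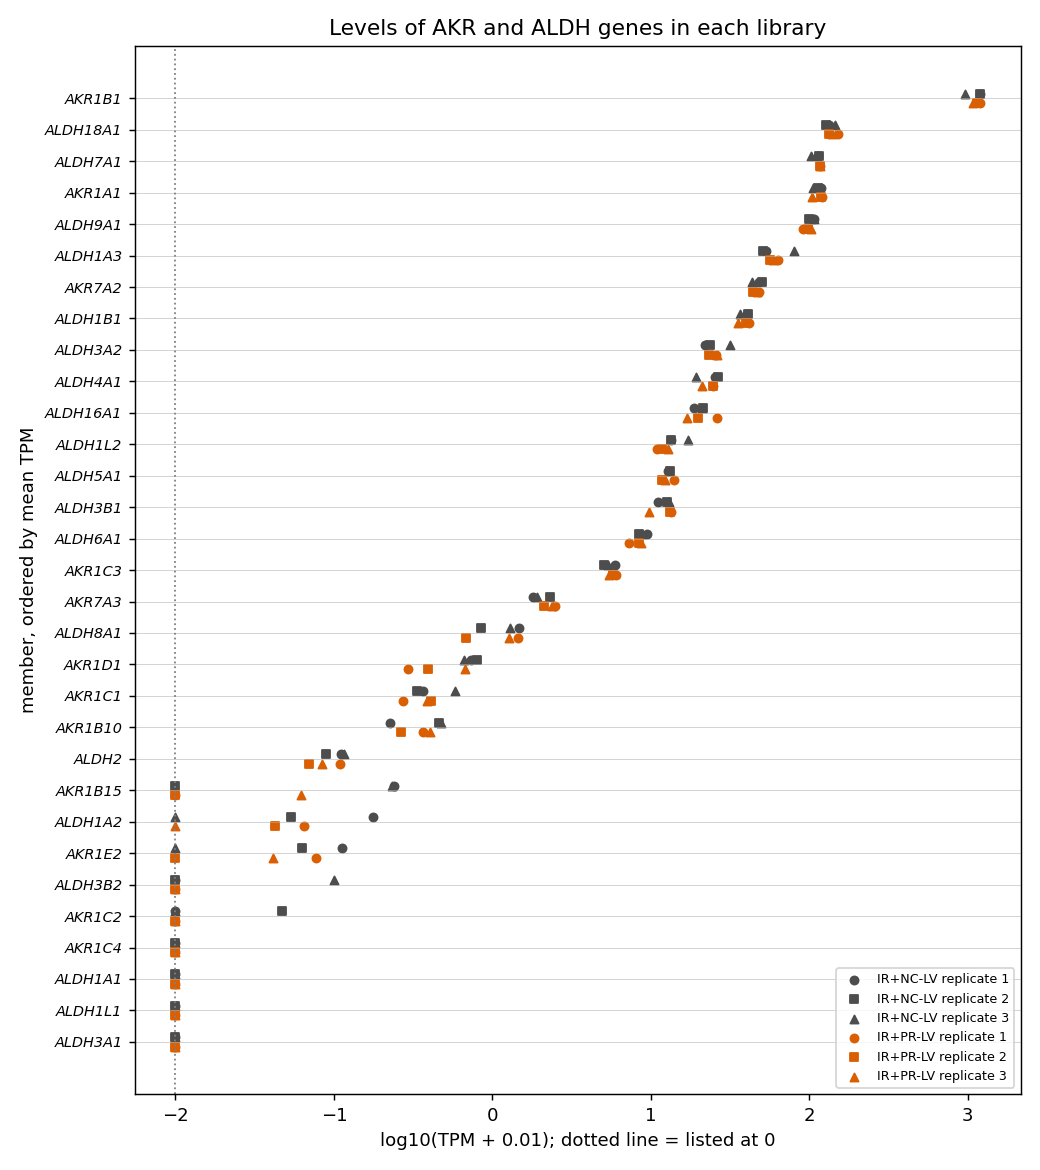
Level of each of the 31 members in each library, as log10(TPM + 0.01) on the horizontal axis, with members ordered by mean TPM and marker shape giving the replicate. AKR1B1 lies alone on the right at 968 to 1200 TPM, and the dotted line holds values of 0, where AKR1C4, ALDH1A1, ALDH1L1 and ALDH3A1 lie in all 6 libraries.

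AKR1B1, aldose reductase, reduces glucose to sorbitol in the first step of the polyol pathway. The gene lies at chr7:134442350-134459239 on the minus strand (hg38, 2803 exonic bases). Its level was 1194, 1200 and 968 TPM in IR+NC-LV against 1199, 1140 and 1076 TPM in IR+PR-LV. AKR1B1 alone supplied 56.2 to 62.2% of the members' TPM and 86.0 to 87.4% of that of the aldo-keto reductases, and by mean TPM it ranked 104th of 27403 genes with a TPM value above 0. It exceeded AKR1A1, aldehyde reductase, by 9.17 to 10.5 times in every library. It also exceeded SORD, which oxidizes sorbitol to fructose in the next step, by 27.3 to 33.0 times.

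AKR1A1 (chr1:45550779-45570051) stood at 118, 114 and 106 TPM in IR+NC-LV against 120, 118 and 104 TPM in IR+PR-LV, with overlapping groups. AKR7A2, a reductase of succinic semialdehyde and of the dialdehyde of aflatoxin, stood at 48.3, 50.7 and 43.2 TPM against 48.2, 44.4 and 46.7 TPM, again overlapping. Its neighbour AKR7A3 averaged 2.15 TPM, and AKR7A2 was 19.6 to 26.8 times higher than it within each library. The steroid and prostaglandin reductases of the AKR1C cluster on chromosome 10 were low. AKR1C3 averaged 5.60 TPM and AKR1C1 0.383 TPM, AKR1C2 had 1 count in all and AKR1C4 had none. The gap between AKR1C3 and AKR1C1 rests partly on their exonic lengths of 1927 and 6543 bases. In counts over all libraries they had 382 and 87. These paralogs are alike in sequence, which was compared on the longest coding transcript of each gene. Of its 100-base stretches, 82.6% for AKR1C1 and 67.1% for AKR1C2 occurred in no other gene's annotated transcripts, against 95% for AKR1C3. The split between AKR1C1 and AKR1C2 is thus uncertain. That transcript had 6705 bases for AKR1C1 and 1807 for AKR1C3, and shorter ones were not compared. For AKR7A3, 87.8% of such stretches occurred in no other gene, and the others were found in AKR7A2 and AKR7L. Its few counts and its ratio to AKR7A2 may thus be affected.

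The other aldo-keto reductases were near the limit of these libraries. AKR1D1, which reduces the steroid double bond in bile acid synthesis, had 10, 14 and 7 counts in IR+NC-LV and 4, 9 and 10 in IR+PR-LV, 54 in all, and averaged 0.582 TPM. AKR1B10, a reductase of retinal and other aldehydes, had 3, 8 and 5 counts against 5, 6 and 6, 33 in all (0.356 TPM), and AKR1B15 and AKR1E2 had 8 counts each (0.0838 and 0.0423 TPM). AKR1B15 had 4, 0 and 3 counts in IR+NC-LV and 0, 0 and 1 in IR+PR-LV, too few to compare.

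Among the aldehyde dehydrogenases the highest was ALDH18A1, the synthase that makes pyrroline carboxylate from glutamate on the way to proline (chr10:95605938-95656901, minus strand). It stood at 133, 128 and 146 TPM in IR+NC-LV against 152, 134 and 138 TPM in IR+PR-LV. ALDH4A1, which runs the opposite way and oxidizes pyrroline carboxylate to glutamate, stood at 25.3, 26.5 and 19.2 TPM against 24.6, 24.8 and 21.2 TPM. ALDH18A1 was 4.82 to 7.61 times higher than ALDH4A1 within each library, so the biosynthetic transcript was the more abundant of the pair throughout.

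ALDH7A1, antiquitin, acts in lysine breakdown and oxidizes betaine aldehyde (chr5:126541841-126595219, minus strand). Its level was 113, 115 and 102 TPM in IR+NC-LV and 117 TPM in each of the 3 IR+PR-LV libraries. ALDH9A1, which oxidizes trimethylaminobutyraldehyde on the way to carnitine (chr1:165662216-165698562, minus strand), stood at 107, 99.8 and 107 TPM against 91.3, 98.5 and 102 TPM. On this scale the IR+PR-LV libraries lay just above the IR+NC-LV libraries for ALDH7A1, while in TMM-scaled counts, used for the tests, they overlapped. For ALDH9A1 they overlapped on both scales. ALDH7A1, AKR1A1 and ALDH9A1 followed each other in the order of levels, and neither neighbouring pair was separated in all libraries.

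Of the retinal dehydrogenases, which make retinoic acid, only ALDH1A3 was abundant, at 53.7, 51.2 and 80.0 TPM in IR+NC-LV against 63.2, 56.4 and 59.1 TPM in IR+PR-LV (chr15:100879831-100916626, plus strand). IR+NC-LV replicate 3 was the highest library and the other IR+NC-LV libraries were the lowest. ALDH1A2 had 6 counts in all, a mean of 0.0493 TPM. ALDH1A1 had 0 counts among 115430886, which allows up to 0.0260 CPM over all libraries, a limit that covers counting error only. The antisense gene ALDH1A3-AS1 covers 49.4% of the exonic bases of ALDH1A3, and whether the counting used strand is not given in the sources used here. ALDH1A3-AS1 had 94 to 146 counts per library, against 961 to 1718 for ALDH1A3.

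The windows around the start sites of these 3 isozymes are shown because the genes encode enzymes of the same reaction yet ranged in level from 60.6 TPM to no count, and that of AKR1B1 because it was the leading transcript. Each runs from 250 bases before to 50 bases after the RefSeq start (GRCh38.p14), written 5′ to 3′ on the gene's strand, with every CG dinucleotide in capitals. The windows are chr7:134459051-134459350 (minus) for AKR1B1, chr15:100879581-100879880 (plus) for ALDH1A3, chr15:58065662-58065961 (minus) for ALDH1A2 and chr9:72953004-72953303 (minus) for ALDH1A1.
AKR1B1: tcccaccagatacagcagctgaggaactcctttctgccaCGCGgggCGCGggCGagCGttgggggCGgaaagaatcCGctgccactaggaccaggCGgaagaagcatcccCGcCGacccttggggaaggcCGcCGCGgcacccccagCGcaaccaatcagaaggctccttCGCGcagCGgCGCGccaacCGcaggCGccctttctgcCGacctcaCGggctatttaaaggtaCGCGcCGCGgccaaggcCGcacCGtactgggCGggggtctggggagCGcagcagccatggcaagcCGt
ALDH1A3: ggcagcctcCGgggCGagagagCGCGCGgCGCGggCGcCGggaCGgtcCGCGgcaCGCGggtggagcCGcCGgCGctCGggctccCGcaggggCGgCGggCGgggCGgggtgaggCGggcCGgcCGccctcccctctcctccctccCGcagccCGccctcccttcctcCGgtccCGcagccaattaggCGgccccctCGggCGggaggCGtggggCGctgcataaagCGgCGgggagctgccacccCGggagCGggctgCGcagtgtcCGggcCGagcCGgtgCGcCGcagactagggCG
ALDH1A2: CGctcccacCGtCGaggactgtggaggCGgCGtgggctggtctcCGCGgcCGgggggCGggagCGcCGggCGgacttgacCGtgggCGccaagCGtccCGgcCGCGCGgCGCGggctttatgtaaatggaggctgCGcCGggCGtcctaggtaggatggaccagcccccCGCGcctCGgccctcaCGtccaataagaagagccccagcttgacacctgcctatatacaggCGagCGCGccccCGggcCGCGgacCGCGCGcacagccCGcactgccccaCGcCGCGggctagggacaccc
ALDH1A1: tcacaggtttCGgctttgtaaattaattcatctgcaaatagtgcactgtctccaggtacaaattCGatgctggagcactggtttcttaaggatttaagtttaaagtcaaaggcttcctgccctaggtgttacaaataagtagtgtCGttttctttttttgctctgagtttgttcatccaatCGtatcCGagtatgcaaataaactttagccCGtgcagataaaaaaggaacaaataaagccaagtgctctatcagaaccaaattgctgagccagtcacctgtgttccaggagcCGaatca

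The AKR1B1 window held 33 CG dinucleotides, that of ALDH1A3 46, that of ALDH1A2 41 and that of ALDH1A1 7. ALDH1A2, with 6 counts in all, had nearly as many as ALDH1A3, so the 3 isozymes kept the same order in CG content and in level, but with very unequal steps. RefSeq windows were matched for 24 of the 31 members by symbol. No window was matched for AKR1B10, AKR1B15, ALDH1L2, ALDH2, ALDH3A1, ALDH3B2 and ALDH16A1. Over the 17 members with a window that were tested below, the median was 25 CG dinucleotides (0 to 46), and 12 of 17 held 15 or more. Over the 7 untested members with a window the median was 7 (1 to 41), and 3 of 7 held 15 or more. Of all 27305 genes in the promoter table, 48.8% held 15 or more, with a median of 14. AKR1C3 was a member with a level above 1 TPM and 0 CG dinucleotides. The letters TGACNNNGC, the core of the antioxidant response element bound by NRF2, were searched on both strands and occurred in the window of 1 of the 24 members, AKR7A2. By window, they occurred in 2 of the 33 windows of members and in 13.3% of all 35116 windows. Windows of overlapping start sites were counted separately in both. Sites outside these windows were not searched, so the count does not show which members lack such a site.

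**Figure D2:**
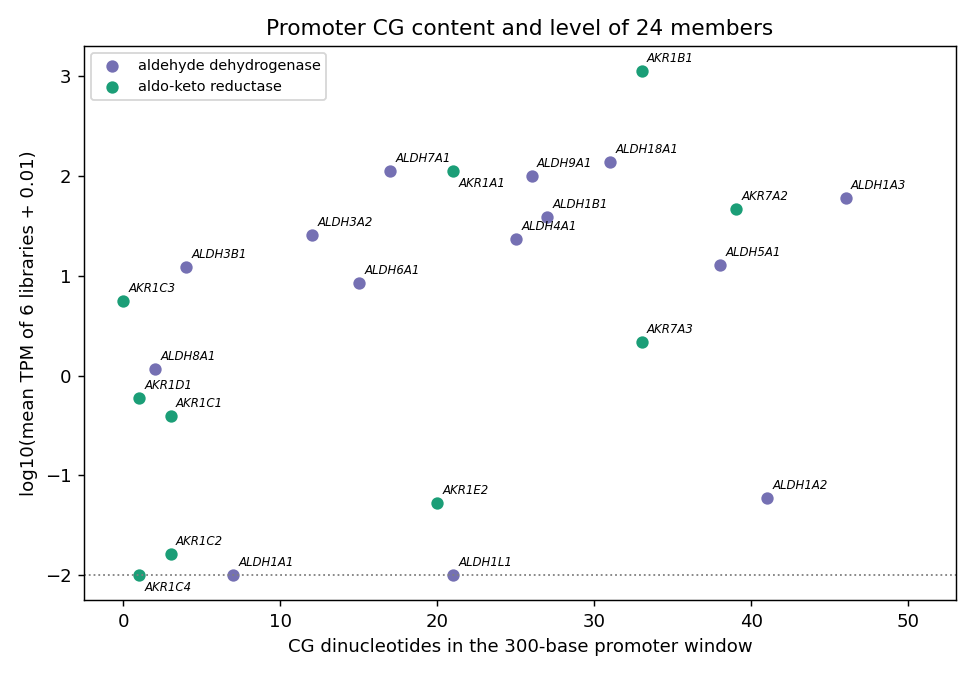
CG dinucleotides in the 300-base window around the first listed start site (horizontal axis) against the mean level over the 6 libraries as log10(TPM + 0.01), for the 24 members with a window. ALDH1A3 and ALDH1A2 lie at 46 and 41 on the horizontal axis and at 60.6 and 0.0493 TPM, and the dotted line holds members with no count.

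The other aldehyde dehydrogenases were lower. ALDH1B1, a mitochondrial enzyme that oxidizes acetaldehyde, stood at 40.6, 41.1 and 36.3 TPM in IR+NC-LV against 41.9, 39.9 and 35.5 TPM in IR+PR-LV. ALDH3A2, fatty aldehyde dehydrogenase, stood at 22.0, 23.8 and 31.5 TPM against 25.7, 23.3 and 26.2 TPM, with IR+NC-LV replicate 3 the highest library. Both sets of values overlapped between the groups. ALDH16A1 stood at 18.7, 21.4 and 21.0 TPM against 26.2, 19.7 and 17.0 TPM, and its groups overlapped too, with the highest and the lowest value both in IR+PR-LV. ALDH5A1, succinic semialdehyde dehydrogenase of GABA breakdown, averaged 12.9 TPM and ALDH3B1, which oxidizes longer-chain aldehydes, averaged 12.2 TPM. ALDH6A1, the methylmalonate semialdehyde dehydrogenase of valine breakdown, averaged 8.50 TPM, and ALDH8A1, an enzyme of the kynurenine route, stood at 0.674 to 1.45 TPM. ALDH2, the main mitochondrial acetaldehyde dehydrogenase of liver, had 5, 5 and 4 counts in both groups, 28 in all and a mean of 0.0866 TPM, and ALDH3B2 had 1 count. ALDH1L1, the cytosolic formyltetrahydrofolate dehydrogenase, and ALDH3A1, a major protein of cornea, had no count in any library.

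Among the first 12 members by level, 6 of the 11 neighbouring pairs were separated in every library, meaning that the lowest value of the higher gene exceeded the highest value of the lower gene. AKR1B1, ALDH18A1, ALDH1A3, AKR7A2 and ALDH1B1 were set apart from the gene below them in this way, as was ALDH9A1 from ALDH1A3. ALDH3A2, ALDH4A1, ALDH16A1 and ALDH1L2, the last of the 12, were not separated from one neighbour to the next.

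The comparison between the groups asks whether PRDM16 changed these enzymes in irradiated cells. No member passed the test, and the estimates were small. Levels are CPM from here on, scaled by trimmed mean of M values (TMM). Changes are log2 fold changes of IR+PR-LV against IR+NC-LV from the quasi-likelihood test of edgeR, and p-values were adjusted by Benjamini and Hochberg's method over all 15054 genes tested. Of the 31 members 19 passed the filter on low counts, 6 aldo-keto reductases and 13 aldehyde dehydrogenases. None of the 19 had an adjusted p under 0.05, where 12 of all genes (0.0797%) did, and the lowest adjusted p among them was 0.393. At an unadjusted p under 0.05 the count was 1 of 19, ALDH1L2, against 10.5% of all genes, and DESeq2 likewise called 0 members and gave 1 at an unadjusted p under 0.05. The groups did not overlap for 2 members, ALDH18A1 and ALDH1L2, against 17.0% of all genes. In bulk RNA fewer cells of a type and less RNA per cell cannot be told apart.

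The median change was 0.02 over the 19 tested members (13 above 0 and 6 below) and 0.0043 over all tested genes, where 51.1% lay above 0. The median size of the change without its sign was 0.06 for the members and 0.10 for all genes. The 95% intervals from edgeR lay between -1 and 1 for all 19 members, so in that fit each excluded a doubling or a halving. For 16 of the 19 the interval also lay between -0.5 and 0.5, the exceptions being the low genes AKR1C1, AKR7A3 and ALDH8A1. DESeq2 gave larger standard errors for AKR1C1 (0.54 around -0.18), ALDH8A1 (0.52 around -0.06), AKR7A3 (0.38 around 0.24) and AKR1C3 (0.26 around 0.13). With that tool a halving was not excluded for AKR1C1 or ALDH8A1. A change beyond 0.5 was not excluded for any of these genes, AKR1C3 included. IR+NC-LV replicate 3 was the lowest of the 6 libraries for 8 tested members, including 5 of the 6 aldo-keto reductases, and the highest for 4. Over all tested genes it was the lowest or the highest for 48.4%. Without it the members' median was -0.02, no member passed the adjusted threshold, and the member with an unadjusted p under 0.05 was ALDH1A3 in place of ALDH1L2. The signs also rested on single libraries: 9 of 19 members lay above 0 without IR+NC-LV replicate 3, and 6 of 19 without IR+PR-LV replicate 1.

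**Figure D3:**
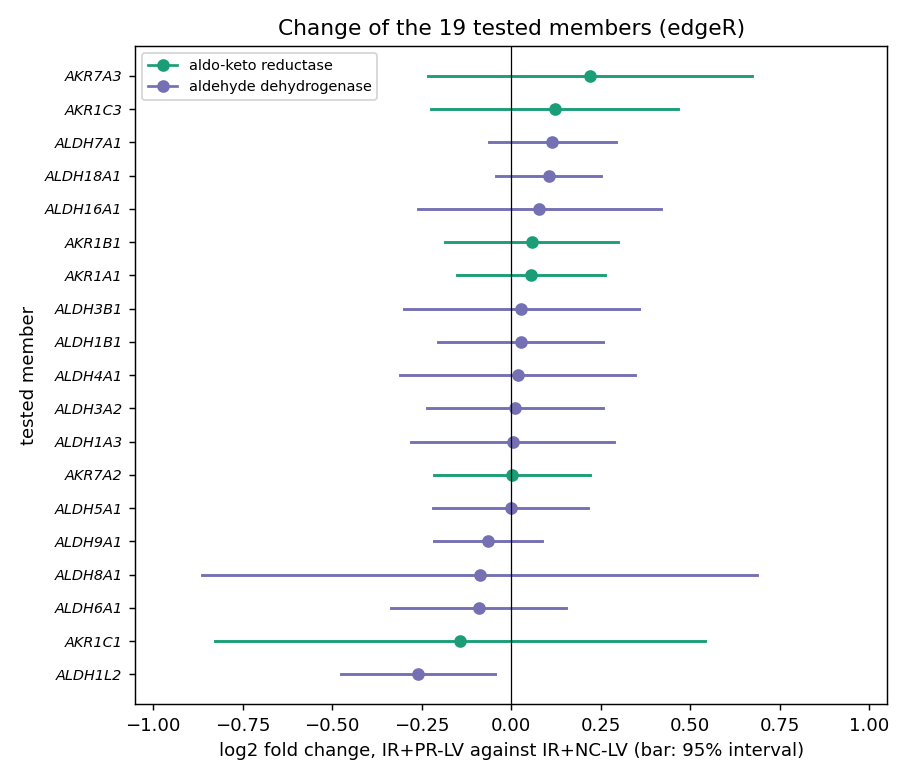
Log2 fold change of IR+PR-LV against IR+NC-LV for the 19 tested members, with bars for the 95% interval from edgeR and colours for the 2 families. The points lie between -0.26 and 0.22, and the ALDH1L2 interval, before adjustment over all genes, is the one that does not cross 0.

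ALDH1L2 is the mitochondrial formyltetrahydrofolate dehydrogenase, which releases the folate-bound one-carbon unit as CO2 and makes NADPH (chr12:105019784-105084609, minus strand). Its TPM values were 13.4, 13.4 and 17.1 in IR+NC-LV and 10.9, 11.7 and 12.8 in IR+PR-LV. In CPM it stood at 33.7, 34.4 and 40.2 against 27.8, 30.2 and 32.3, so that each IR+PR-LV library lay below each IR+NC-LV library. The means were 36.1 ± 3.59 and 30.1 ± 2.23 CPM (SD, n = 3 each). The log2 fold change was -0.26 (standard error 0.10, 95% interval -0.47 to -0.04), with an unadjusted p of 0.0227 and an adjusted p of 0.393 by edgeR, so it did not pass the test. Without IR+NC-LV replicate 3, the highest library, the log2 fold change was -0.17 and edgeR's unadjusted p was 0.0872.

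ALDH18A1 was the other member whose groups did not overlap, with 162, 158 and 166 CPM in IR+NC-LV against 188, 166 and 168 CPM in IR+PR-LV. The lowest IR+PR-LV library lay just above the highest IR+NC-LV library, and in TPM the groups overlapped. The means were 162 ± 3.62 and 174 ± 11.8 CPM (SD, n = 3 each). The log2 fold change was 0.10 (standard error 0.07, 95% interval -0.04 to 0.25, edgeR adjusted p = 0.623), and 0.05 without IR+PR-LV replicate 1, the highest library.

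ALDH7A1 was even across the IR+PR-LV libraries, at 173, 175 and 171 CPM, and stood at 166, 172 and 140 CPM in IR+NC-LV. The groups overlapped, and IR+NC-LV replicate 3 was the low library. Its log2 fold change was 0.12 (standard error 0.08, edgeR adjusted p = 0.657), and 0.03 without that library. AKR1B1 had the same low library, with 1029, 1053 and 779 CPM in IR+NC-LV against 1046, 1004 and 926 CPM in IR+PR-LV. Its change was 0.06 (standard error 0.11, 95% interval -0.18 to 0.30, edgeR adjusted p = 0.883), and -0.07 without IR+NC-LV replicate 3. The leading transcript thus differed by less than the spread between the control libraries.

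**Figure D4:**
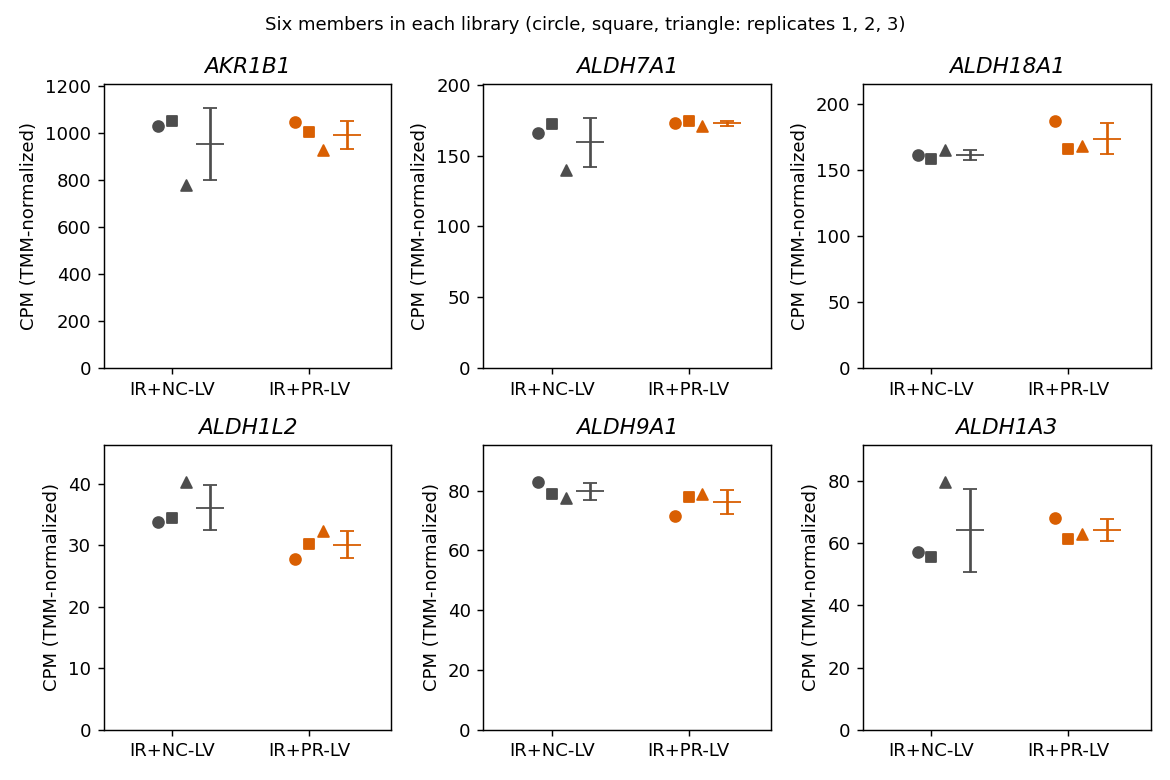
CPM of AKR1B1, ALDH7A1, ALDH18A1, ALDH1L2, ALDH9A1 and ALDH1A3 in each library, with marker shape for replicates 1 to 3 and a bar for the mean ± SD of each group; axes start at 0. The ALDH1L2 values of 27.8 to 32.3 CPM in IR+PR-LV lie below the 33.7 to 40.2 CPM of IR+NC-LV, and in the ALDH1A3 panel IR+NC-LV replicate 3 lies above all other libraries at 79.7 CPM.

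The estimates of the other tested aldo-keto reductases were 0.05 (AKR1A1), 0.12 (AKR1C3), 0.22 (AKR7A3), 0.0014 (AKR7A2) and -0.14 (AKR1C1) on the log2 scale, and none had an adjusted p by edgeR under 0.779. AKR7A3 had the highest positive estimate of the 19 members and AKR1C1 the lowest of its family, but both rested on few counts. AKR7A3 had 21, 34 and 17 counts in IR+NC-LV against 29, 42 and 30 in the other group, and AKR1C1 had 12, 14 and 15 against 9, 23 and 14. Their 95% intervals from edgeR ran from -0.23 to 0.67 and from -0.83 to 0.54. These intervals may be too narrow, since DESeq2 gave standard errors of 0.38 and 0.54, against 0.20 and 0.31 from edgeR. The 6 aldo-keto reductases had a median of 0.06, with 5 of 6 above 0. Without IR+NC-LV replicate 3 the median was 0.03, with 3 of 6 above 0, and AKR1A1, AKR1B1 and AKR7A2 stood at -0.02, -0.07 and -0.09.

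The 13 aldehyde dehydrogenases had a median of 0.01, with 8 above 0 and 5 below, and -0.02 with 2 above 0 without IR+PR-LV replicate 1. ALDH1A3, at 57.3, 55.6 and 79.7 CPM against 68.2, 61.4 and 63.0 CPM, had a log2 fold change of 0.0042 (-0.0048 under upper-quartile scaling) and 0.19 without IR+NC-LV replicate 3. That library was the highest of the 6. ALDH9A1, at 82.9, 78.8 and 77.6 CPM against 71.7, 78.0 and 79.0 CPM, had an estimate of -0.06 (standard error 0.07), and its groups overlapped. The estimates of ALDH16A1, ALDH1B1, ALDH3A2, ALDH3B1 and ALDH4A1 lay between 0.01 and 0.08 and that of ALDH5A1 was -0.0013. ALDH6A1 and ALDH8A1 both stood at -0.09, with ALDH8A1 the less certain, at 19, 14 and 13 counts against 19, 15 and 18 (95% interval -0.86 to 0.69). ALDH6A1 shares 29.8% of its exonic bases with BBOF1 on the other strand and ALDH5A1 shares 5.11% with GPLD1, so reads of those genes may be among their counts. Of 100-base stretches in the longest transcript, 59.6% for ALDH4A1 and 67.8% for ALDH1A3 occurred in no other annotated gene. The others were found in AL080251.1 and AC015712.2, respectively. Both strands were searched, and whether those genes overlap the same locus was not checked. The shares thus do not show that the sequence is repeated elsewhere.

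Genes that work beside the members were taken from 14 lists of enzymes and regulators, and no gene of any list had an adjusted p under 0.05 by edgeR. The lists were chosen with earlier results of these data known. Their counts, set beside the shares of all genes, are therefore descriptive and not an independent test. Proline and glutamate metabolism, the route of ALDH18A1 and ALDH4A1, had 7 of 10 genes tested, of which 3 were higher at an unadjusted p under 0.05 and 0 lower, against 4.41% and 6.09% of all genes. Its median was 0.15. PYCR3, which reduces pyrroline carboxylate to proline, had 11, 14 and 13 counts in IR+NC-LV and 47, 48 and 36 in IR+PR-LV, so its groups did not overlap. Its level was 0.752 ± 0.159 against 2.16 ± 0.567 CPM (SD, n = 3 each). The log2 fold change of 1.51 (standard error 0.27) missed the threshold with edgeR (adjusted p = 0.0801). It passed with DESeq2 (1.53, adjusted p = 0.0367) and, in edgeR, with no filter on low counts (adjusted p = 3.63e-05). The fit with no filter called 354 of all genes, against 12 in the main fit. PYCR3 is listed in 2 rows that were summed, and the row on an alternate scaffold had no counts. Its estimate was 1.67 without IR+NC-LV replicate 3 (edgeR adjusted p = 0.143). Leaving out each library in turn, its edgeR adjusted p ran from 0.108 to 0.276, never under the threshold. Genes of the list higher at an unadjusted p under 0.05 numbered 2 without IR+NC-LV replicate 3. They numbered 1 without IR+NC-LV replicate 1, IR+PR-LV replicate 2 or IR+PR-LV replicate 3. They numbered 4 without IR+PR-LV replicate 1, 4 with DESeq2 and, with no filter in edgeR, 5 of 10 tested. GLUD1, glutamate dehydrogenase, had an estimate of 0.15 (edgeR adjusted p = 0.391) and OAT, ornithine aminotransferase, one of 0.19 (adjusted p = 0.464).

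Folate one-carbon metabolism, the route of ALDH1L2, had 13 of 13 genes tested, with a median of -0.07. At an unadjusted p under 0.05, 2 were higher and 2 lower, against 4.41% and 6.09% of all genes. Without IR+PR-LV replicate 2 the list had 0 higher and 2 lower, and without IR+NC-LV replicate 1 or IR+NC-LV replicate 2 it had 1 and 1. Without IR+PR-LV replicate 1 it had 3 higher and 2 lower. SHMT2, the mitochondrial serine hydroxymethyltransferase that supplies one-carbon units in the same compartment as ALDH1L2, stood at 222 ± 10.4 against 191 ± 5.05 CPM (SD, n = 3 each, IR+NC-LV first). Its log2 fold change was -0.22 (edgeR adjusted p = 0.267). The cytosolic form SHMT1 had 304, 557 and 69 counts against 59, 339 and 97, summed over 2 listed rows, and varied within each group. Its estimate was -1.22 (edgeR adjusted p = 0.472), -1.63 without IR+NC-LV replicate 3 and -0.70 without IR+NC-LV replicate 2, with an unadjusted p of 0.126 by DESeq2. It passed the adjusted threshold in edgeR with no filter (adjusted p = 2.43e-06), a fit that called 354 of all genes, though its groups overlapped. Without IR+NC-LV replicate 3 the list's median was -0.0054. MTHFD2L had an estimate of 0.21 (edgeR adjusted p = 0.446) and did not pass the test.

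**Figure D5:**
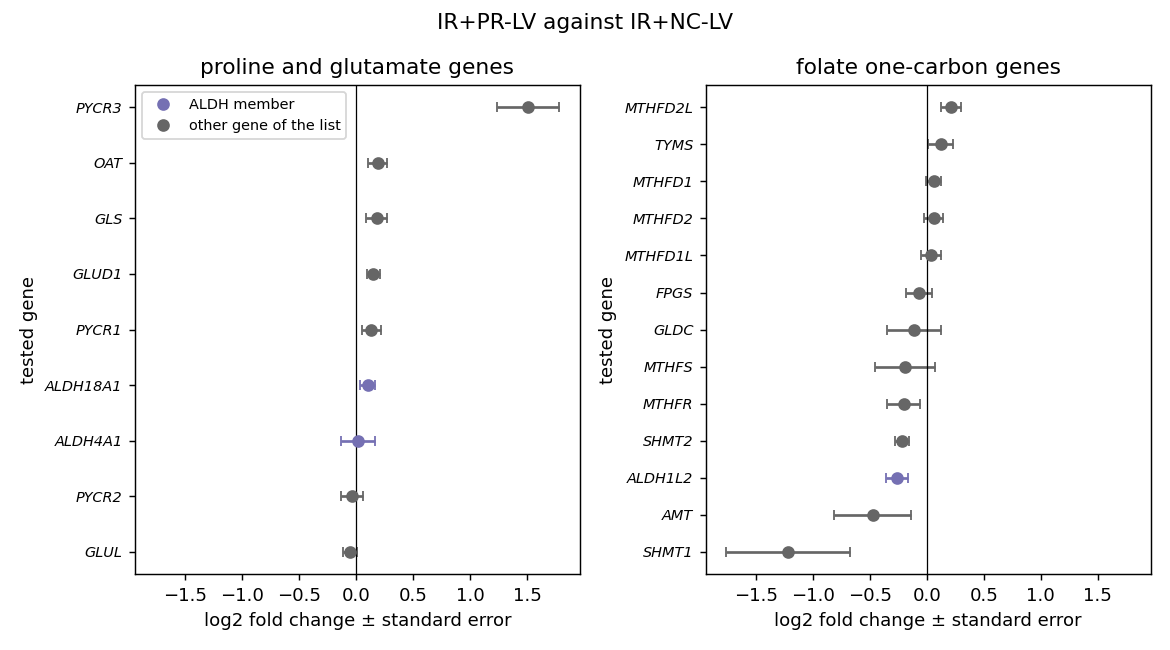
Log2 fold change of IR+PR-LV against IR+NC-LV with its standard error for the tested genes reported here of the proline and glutamate list (left) and the folate one-carbon list (right), with the ALDH members of each route coloured. PYCR3 at 1.51 and SHMT1 at -1.22 lie farthest from 0, ALDH18A1 and ALDH4A1 at 0.10 and 0.02, and ALDH1L2 at -0.26.

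In the polyol list, which follows AKR1B1, 5 of 5 genes were tested and 0 had an unadjusted p under 0.05. SORD stood at 52.3 ± 5.64 and 57.8 ± 1.32 CPM (log2 fold change 0.14, edgeR adjusted p = 0.609), and KHK, ketohexokinase, had an estimate of -0.24. Of the retinoid genes, the partners of ALDH1A3, 17 of 25 were tested, with a median of 0.07. At an unadjusted p under 0.05, 2 were higher and 0 lower, against 4.41% and 6.09% of all genes. The 2 were CYP26A1, which breaks down retinoic acid (0.49, edgeR adjusted p = 0.429), and CRABP2, which carries it to the nucleus (0.22, adjusted p = 0.475). RDH14, a retinol dehydrogenase, had an estimate of 0.33. The higher genes of the list numbered 0 without IR+NC-LV replicate 1 or IR+NC-LV replicate 2. Of 12 carbonyl reductases tested, DHRS2 alone had an unadjusted p under 0.05, against 10.5% of all genes. Its estimate was -0.42 (edgeR adjusted p = 0.411). HSD17B12 had an estimate of 0.17 and NQO1 one of -0.15.

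The list of NRF2, the regulator of the antioxidant response, holds its own gene NFE2L2, partners such as KEAP1 and BACH1, and its known targets, and 29 of 29 genes were tested. At an unadjusted p under 0.05, 7 were lower, NFE2L2 among them, and 0 higher, against 6.09% and 4.41% of all genes, and the median was -0.05. Without IR+PR-LV replicate 3 the lower genes numbered 4. HMOX1, heme oxygenase, had an estimate of -0.45 (edgeR adjusted p = 0.198), MAFF one of -0.30 (adjusted p = 0.233) and OSGIN1 one of -0.51 (adjusted p = 0.312), none of them past the threshold. AKR1C1 and AKR1C3, which are known NRF2 targets themselves, had estimates of -0.14 and 0.12.

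The remaining lists gave few genes at an unadjusted p under 0.05, where 4.41% of all genes were higher and 6.09% lower. For fatty aldehydes, the substrates of ALDH3A2, 1 of 6 tested genes was higher, FAR2, a fatty acyl-CoA reductase (0.23, edgeR adjusted p = 0.411), beside FAR1 at 0.13 and AOC3 at 0.28. For steroids 1 of 3 was higher, the reductase SRD5A1 (0.22, edgeR adjusted p = 0.391), beside SRD5A3 at 0.08 and HSD11B2 at -0.22. In GABA metabolism, the route of ALDH5A1, 1 of 2 was lower, the synthesizing enzyme GAD1 (-0.38, edgeR adjusted p = 0.340), and the transaminase ABAT had an estimate of -0.12. In carnitine synthesis, the route of ALDH9A1, 1 of 2 was lower, SHMT1 again, and TMLHE had an estimate of 0.12. None of 13 valine and propanoate genes, of 5 lysine and betaine genes, of 3 alcohol dehydrogenases or of 2 aldehyde oxidases had an unadjusted p under 0.05. Their smallest unadjusted p-values belonged to DLD (0.16), MMUT (-0.13) and BCAT1 (0.11) in the first, to AASDHPPT (0.09), CHDH (0.17) and AADAT (-0.12) in the second, to ADH5 (0.11), ADH6 (-0.16) and ADHFE1 (0.05) in the third, and to XDH (-0.34) and AOX1 (-0.13) among the oxidases, the values in brackets being log2 fold changes.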

How the data were processed

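Poly(A) RNA of 6 libraries was sequenced in paired ends by the authors. Per the labels, CASAVA, featureCounts 2.0.1, DESeq2 1.16.1 and hg38 were used, with no role given; the aligner and the strand setting are not given in the sources used here. The authors deposited raw read counts per listed gene, with TPM and FPKM computed from them; the deposited TPM equalled counts over exonic length, and the deposited FPKM were not used for any result. All 38648 rows carried a name, and rows sharing one of the 2008 repeated names were summed.

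Counts were tested with edgeR 4.0.16 (R 4.3.3): filterByExpr with a minimum count of 10 and total of 15, TMM scaling, glmQLFit, glmQLFTest, Benjamini-Hochberg adjustment and a threshold of 0.05. All 6 libraries entered each fit without a replicate block. The script was tested on simulated counts. DESeq2 1.42.0, RLE and upper-quartile scaling, other filters, unsummed rows, a replicate block and leaving out each library were alternatives. TPM served for levels between genes. Depth was 13407074 to 28540041 counts, so 3 counts, the floor used, is 0.105 to 0.224 CPM per library. No 2 libraries agreed within sampling noise.

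Named genes were PRDM16, every member, and the 3 genes of smallest unadjusted p in each list beside any past the threshold; library values were given for the 12 members of highest mean TPM and for any tested member with an unadjusted p under 0.05. Members, lists and this rule were chosen with earlier results of these data known. Marker genes were named as checks of the cells. Some genes of the lists are not reported here.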

Additional observations from a re-analysis of the deposited data

How the results depend on the processing

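The members' call did not depend on the alternatives run: 0 members passed the adjusted threshold in every one. The count over all genes did. It was 12 with edgeR, 154 with DESeq2 and 354 with no filter beyond 1 count, and on leaving out 1 library it was lowest, at 2, without IR+PR-LV replicate 3 and highest, at 35, without IR+NC-LV replicate 2, with 6 without IR+PR-LV replicate 1; the cause was not tested. Genes of the pathway and marker lists past the threshold numbered 1 with DESeq2 (PYCR3) and 6 with no filter, among them HMOX1, PYCR3, SHMT1, SLC7A11 and VWF. ALDH1L2 stayed below 0 throughout (-0.31 to -0.17), and its unadjusted p exceeded 0.05 without IR+NC-LV replicate 3 (0.0872), IR+PR-LV replicate 1 (0.0570) or IR+PR-LV replicate 2 (0.0564). AKR1C1 had 9 counts in 1 library and could not be fitted with at least 10 counts in every library.

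Estimates near 0 turned sign. ALDH5A1 became 0.0021 with RLE scaling, 0.00043 with DESeq2 and 0.0058 with no filter; with upper-quartile scaling AKR7A2 became -0.0043 and ALDH1A3 -0.0048. Leaving out each library in turn, 12 members crossed 0, with log2 fold changes from -0.018 to 0.12 for AKR1A1, -0.067 to 0.13 for AKR1B1, -0.29 to 0.077 for AKR1C1, -0.089 to 0.078 for AKR7A2, -0.11 to 0.21 for ALDH16A1, -0.094 to 0.19 for ALDH1A3, -0.057 to 0.099 for ALDH1B1, -0.082 to 0.13 for ALDH3A2, -0.045 to 0.17 for ALDH3B1, -0.13 to 0.13 for ALDH4A1, -0.072 to 0.046 for ALDH5A1 and -0.31 to 0.23 for ALDH8A1. The members' median ran from -0.02 to 0.10.

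The groups share replicate numbers, but deviations of same-numbered libraries correlated by -0.02, 0.06 and 0.06, so the numbers were not taken to pair the libraries. With the replicate block, 18 genes and 0 members passed.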
